A study of Mus musculus with 3 samples.

Results

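The cytosolic ribosomal protein genes were examined in mouse embryonic stem cells exposed to tubercidin. A gene was taken when its symbol in the feature lists began with Rpl or Rps followed by a digit, leaving out symbols that end in a pseudogene suffix and the Rps6k kinases. The rule found 82 of the 32285 listed genes, of which 49 carry Rpl names (large subunit) and 33 carry Rps names (small subunit). The rule reads symbols alone, and Rps15 had been singled out beforehand from earlier results of these data. It also takes in Rps19bp1, which encodes a binding partner of the protein Rps19 and not a ribosomal protein, and 8 copies or relatives of ribosomal protein genes (Rpl3l, Rpl7l1, Rpl10l, Rpl22l1, Rpl36al, Rpl39l, Rps27l and Rps27rt).

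All cells were of the E14 line, which has a 129/Ola background, and were kept in medium with serum and leukaemia inhibitory factor. Tubercidin, an adenosine analogue, was given at 10 uM, with harvest after 3 h in one culture and 6 h in another, and a control culture received the solvent DMSO for 6 h. There was therefore no DMSO culture of the shorter time. Each condition is 1 library made with droplet 3′ end chemistry, so no spread between cultures could be estimated, no test was made and no p-value is given. Every interval below is an exact one at 95% and describes counting alone, not how another culture would differ. Molecules are what is counted, except in shares of cells, where it is the cells of 1 culture.

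A cytosolic ribosome is built from a small subunit, which holds the mRNA and reads the codons, and a large subunit, which joins the amino acids and guides the new chain out through an exit tunnel. Their proteins are needed in equal numbers, and their mRNAs are among the most abundant and most stable of growing cells. Most of these mRNAs begin with a C followed by a tract of pyrimidines (the TOP sequence), through which mTOR signalling and Larp1 set how well they are translated. Embryonic stem cells divide fast and keep a large pool of ribosomal protein mRNA.

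The called cells numbered 2031 in the control, 2365 after 3 h and 2926 after 6 h, and held 104892739, 29892000 and 24681924 UMIs (molecular tags that mark each captured RNA molecule once). The median cell had 48452, 11877 and 8004.5 UMIs. Any pair of libraries shared 1 cell barcode. All 8 stem cell markers that were looked up were detected in every library, with summed levels of 3780 to 5180 CPM (UMI counts scaled to the same total in each library), against 1.94 CPM or less for fibroblast and 13.3 CPM or less for trophoblast markers. Values of single genes below are UMIs summed over the cells of a library and given as CPM, and a log2 ratio is that of CPM + 1. Of the 82 genes, 80 reached a mean of 10 CPM over the 3 libraries, as did 7884 genes in all. Rpl3l, known from muscle, had 0.953, 1.71 and 1.82 CPM in the control, after 3 h and after 6 h, and Rpl10l, known from testis, had 9.0, 7.16 and 7.70 CPM. Both lay under the filter and enter no count.

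Ribosomal protein mRNA took a larger share of the RNA after 3 h than in the other libraries. The 82 genes held 21.9% of the UMIs in the control (21.867 to 21.883%), 27.2% after 3 h (27.191 to 27.223%) and 23.7% after 6 h (23.667 to 23.700%). Large subunit names made up 12.2%, 15.2% and 13.5%, and small subunit names 9.68%, 12.0% and 10.2%. The order of the libraries was thus the same for both subunits, with 3 h highest and the control lowest. Among the 100 genes with most UMIs, 62, 63 and 62 were of this family.

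The larger share did not go with more ribosomal protein UMIs per cell. A cell had on average 11298 of them in the control, 3439 after 3 h and 1998 after 6 h, so the treated values were lower by factors of 3.29 and 5.66. For UMIs of all other genes the factors were 4.39 and 6.27. From 3 h to 6 h the relation turned: ribosomal protein UMIs were 1.72-fold lower and those of the other genes 1.43-fold lower. Sequencing depth and RNA content per cell cannot be told apart in these numbers, so only shares and ratios of shares are compared below.

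Within the libraries the share was a property of most cells. Its median over cells was 22.1% in the control, 27.8% after 3 h and 24.1% after 6 h, and it stayed at 22.1%, 27.9% and 24.2% when each cell was reduced to 4000 UMIs and the 0, 122 and 284 shallower cells were left out. The middle part of the cells, from the lower to the upper quartile, reached from 20.5 to 23.5% in the control, from 25.9 to 29.3% after 3 h and from 21.3 to 26.5% after 6 h. The quartile ranges of the control and of 3 h did not overlap, and that of 6 h overlapped both. The treated libraries also had a tail of cells poor in ribosomal protein mRNA. Cells under 50% of their library's median share were 31 of 2031 in the control (1.53%, 1.04 to 2.16%), 184 of 2365 after 3 h (7.78%, 6.73 to 8.93%) and 109 of 2926 after 6 h (3.73%, 3.07 to 4.48%). Their median mitochondrial share was 11.4%, 10.8% and 9.44%, against 2.86%, 3.19% and 2.77% in the other cells, and they had fewer UMIs. Without them the family's share was 21.9%, 27.7% and 23.9%.

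**Figure D1:**
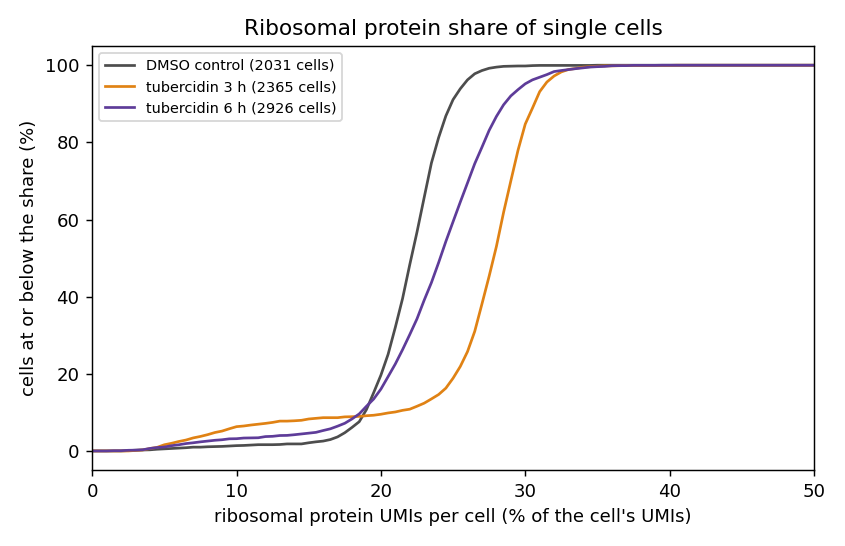
Cumulative percentage of cells (y axis) at or below a given ribosomal protein share of the cell's UMIs in percent (x axis), 1 line per library. The 3 h line lies to the right of the control line over most of its course, with medians of 27.8% and 22.1%, but starts with a tail of cells of low share, and the 6 h line, with a median of 24.1%, is the flattest of them.

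RNA outside cells differed in the same order but by more. In barcodes beyond rank 5000 and up to rank 15000 by UMIs, below every cell minimum, ribosomal protein genes held 16.2%, 33.1% and 21.6% of the UMIs. Each of the 80 genes was higher after 3 h than in the control in this free RNA, with a median log2 ratio of 0.97, against 0.28 in the cells, and 67 of 80 were higher after 6 h, with a median of 0.36 against 0.05. Subtracting free RNA at 10% of each library's UMIs left shares of 22.1%, 26.5% and 23.6% in the cells, with the order of the libraries kept.

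The genes lay largely together, above most other genes, after 3 h. The median log2 ratio against the control was 0.28 over the 80 genes, whereas it was -0.27 over all 7884 genes. Of the 80, 65 had a ratio above 0, against 27.4% of all genes, and 77 lay above the median of all genes, against 50% by definition. The counting interval lay wholly above 0 for 64 genes and wholly below 0 for 15, against 21.5% and 65.5% of all genes. The 190 other genes that reached a mean of 500 CPM had a median of 0.08 and a standard deviation of 0.51, while the standard deviation over the 80 was 0.31. Of these abundant genes 54.7% had a ratio above 0, and 75.3% lay above the median of all genes. A ratio of 0.25 or less from the family's median was seen in 50 of the 80.

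The direction after 3 h was the same with other scalings and turned without any. With median-of-ratios factors 76 of 80 were above 0 and the median was 0.52, and with TMM factors 73 were above 0 and the median was 0.47. Per called cell, without scaling, none of the 80 was above 0 and the median was -1.75, beside -2.16 for all genes. The distance of the family's median from that of all genes was 0.55 with CPM, 0.56 with either set of factors and 0.41 per called cell. Each of these choices multiplies all genes of a library alike, so the distance differs only through the 1 added before the logarithm. That 1 weighs most per called cell, where the treated values are smallest.

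At 6 h the group had spread out around the control level. The median was 0.05, against -0.12 for all genes, and the standard deviation was 0.41. The 190 other genes of at least 500 CPM had a median of 0.07, above that of the family, and a standard deviation of 0.46. Of these abundant genes 66.8% lay above the median of all genes, against 71.3% of the family. Of the 80 genes 47 had a ratio above 0, against 39.7% of all genes, and 57 lay above the median of all genes, against 50%. The counting interval lay above 0 for 44 and below 0 for 33, against 31.7% and 51.9% of all genes. This median was 0.02 with TMM factors and -2.55 per called cell, where it lay 0.02 below that of all genes instead of 0.17 above it with CPM.

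Between 3 h and 6 h most of the family was lower, while with CPM most other genes were higher. The median log2 ratio of 6 h against 3 h was -0.27, against 0.14 over all genes, and 15 of 80 had a ratio above 0, against 67.6% of all genes. Median-of-ratios and TMM factors each left 3 of 80 above 0, and no gene of the family was above 0 per called cell. The median of all genes was itself below 0 there, at -0.08 with median-of-ratios factors, -0.07 with TMM factors and -0.37 per called cell. With CPM only 7 of 80 exceeded the median of all genes, against 50%. The 190 other abundant genes had a median of -0.03, and 60 of them exceeded the median of all genes. The counting interval was above 0 for 14 and below 0 for 63, against 51.2% and 19.7% of all genes. The 3 comparisons are not independent, since each pair of them shares a library.

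**Figure D2:**
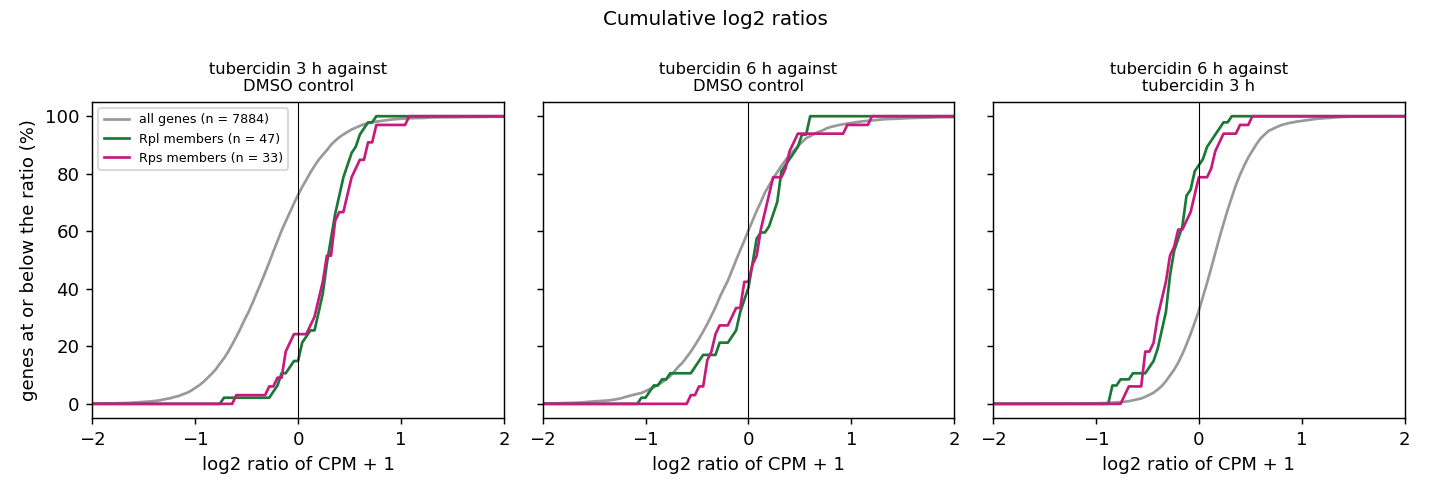
Cumulative percentage of genes (y axis) at or below a log2 ratio of CPM + 1 (x axis) for all 7884 genes and for the 47 large and 33 small subunit names, 1 panel per comparison. At 3 h both family lines lie to the right of the line of all genes (medians 0.29, 0.26 and -0.27), after 6 h they lie closer to it, and from 3 h to 6 h they lie to its left; without scaling, as UMIs per called cell, all 80 genes would lie below 0 in each panel.

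Large and small subunit names did not separate. Their medians after 3 h were 0.29 for 47 Rpl genes and 0.26 for 33 Rps genes, a difference of 0.02, and over the alternatives tried the difference ran from -0.0018 to 0.0503. At 6 h the medians were 0.05 and 0.04, and for 6 h against 3 h -0.26 and -0.28. In each comparison the difference was far smaller than the standard deviation within either set, which was 0.28 and 0.35 after 3 h.

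Single genes departed from the group in both directions. Genes at least 0.5 from the family's median on the log2 scale numbered 6 after 3 h, 1 above (Rps15) and 5 below (Rpl35, Rps27l, Rps28, Rpl39 and Rps19bp1). Of all genes 14% lay that far above and 13.4% that far below the median of all. At 6 h there were 14, with 5 above (among them Rps15, Rps27rt, Rpl8 and Rpl36) and 9 below (Rpl9, Rpl7a, Rpl35, Rpl10, Rpl22l1, Rps28, Rpl22, Rpl3 and Rps27l), against 14.4% and 15.2% of all genes. For 6 h against 3 h there were 7, namely Rps27rt, Rps19bp1 and Rpl41 above and Rpl10, Rpl7a, Rpl9 and Rpl22l1 below, against 6.27% and 6.28%. The gene nearest the limit from inside was Rps19bp1 at -0.52 after 3 h, Rpl36 at 0.51 after 6 h and Rpl22l1 at -0.53 for the later step, and just outside stood Rpl9 at -0.50, Rpl39 at -0.49 and Rpl37 at 0.47. In all 3 comparisons the shares of members in either direction were below those of all genes around their own median.

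**Figure D3:**
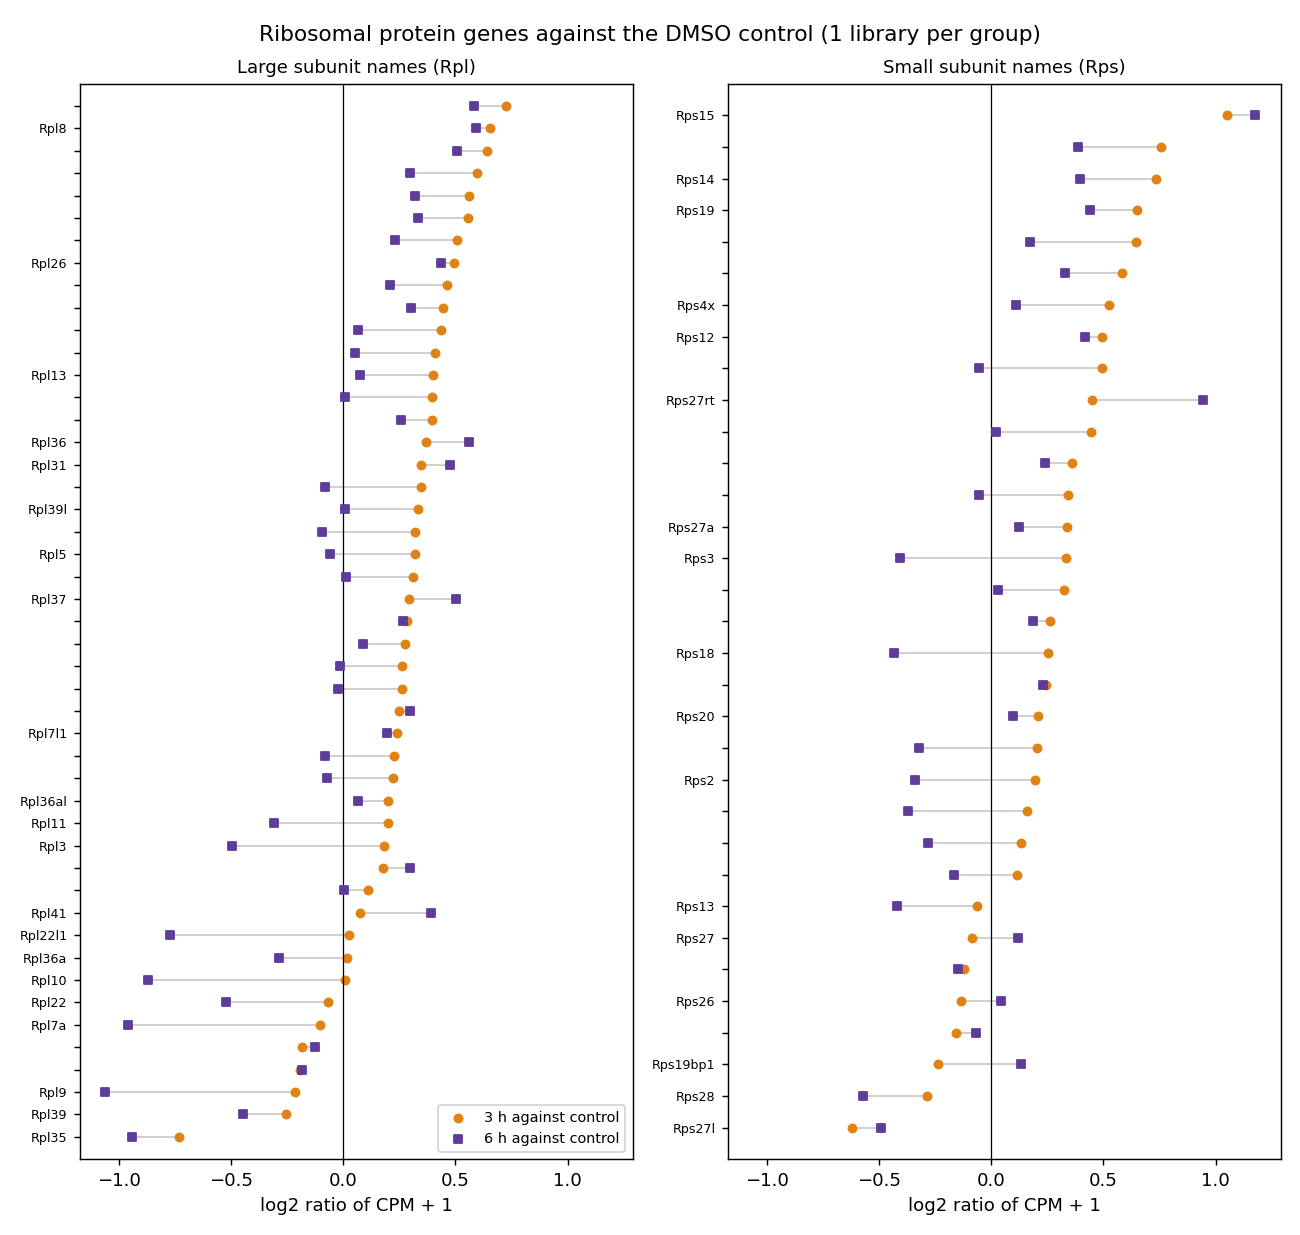
Log2 ratio of CPM + 1 against the control (x axis) for each of the 80 genes (y axis, sorted by the 3 h value, with a name for each gene mentioned here), circles for 3 h and squares for 6 h, with large subunit names on the left and small subunit names on the right. Rps15 stands above its panel at both times (1.05 and 1.18), Rpl35 below at both (-0.73 and -0.94), and Rpl9, Rpl7a, Rpl10 and Rpl22l1 have squares far to the left of their circles; per called cell every ratio would be negative.

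Rps15 was the ribosomal protein gene furthest above the rest. Its protein sits in the head of the small subunit close to where tRNAs enter, and is needed for the export of new small subunits from the nucleus. The gene (chr10:80292453-80294114, plus strand, 4 exons, GRCm38) gave 2027 CPM in the control, 4194 CPM after 3 h and 4585 CPM after 6 h. Both treated libraries were thus about equally high, and the step from control to 3 h held nearly all of the difference. The log2 ratio was 1.05 (1.04 to 1.06) after 3 h and 1.18 (1.17 to 1.19) after 6 h, 2.07-fold and 2.26-fold. It was the single member past 2-fold higher after 3 h, against 0.888% of all genes, and after 6 h, against 2.33%.

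Its excess over the family hardly depended on the processing. It stood 0.75 to 0.79 above the family's median after 3 h and 1.11 to 1.15 above it after 6 h over the alternatives, the unscaled one included, where its own ratios were -0.98 and -1.44. As a share of all UMIs of the family it made up 0.927%, 1.54% and 1.94%. In cells reduced to 4000 UMIs the median cell had 8, 16 and 18 of its UMIs, and over 4 depth groups of cells of about equal size its level was 2018 to 2044 CPM in the control, 3450 to 4354 CPM after 3 h and 4298 to 4675 CPM after 6 h. Every depth group of either treated library lay above every one of the control. These groups are parts of the same libraries, not replicates, and Rps15 had been singled out from these data. In the free RNA it had 1819, 4973 and 4533 CPM. The ratio of 6 h to 3 h was 0.13, but -0.10 with median-of-ratios and -0.09 with TMM factors. Neighbouring Dazap1, which ends 4044 bases upstream, had 113, 150 and 156 CPM, and Apc2, which starts 1862 bases downstream, 0.524, 0.569 and 1.01 CPM.

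**Figure D4:**
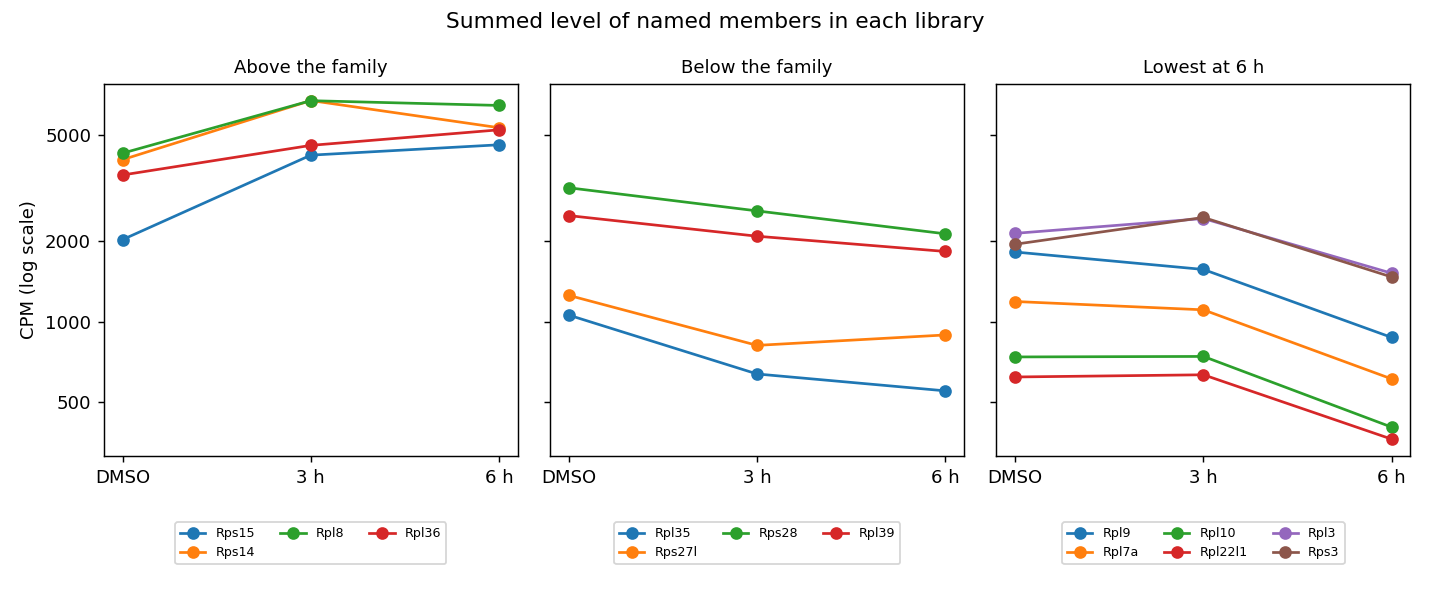
Summed level in CPM (y axis, log scale) of named genes in the 3 libraries (x axis), in panels of genes above the family, below it, and low after 6 h. Rps15 goes from 2027 to 4194 and 4585 CPM, Rpl35 from 1059 to 638 and 552 CPM, and Rpl9 from 1822 to 1569 and 874 CPM; Rpl3 and Rps3 were added after their values were seen.

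Rps14 and Rpl8 also stood near the top after 3 h. Rps14, a protein of the platform and the gene behind the anaemia of the human 5q- syndrome, had 4034, 6708 and 5311 CPM in the control, after 3 h and after 6 h, with log2 ratios of 0.73 and 0.40. It peaked after 3 h and lost part of the difference by 6 h. Rpl8, which lies next to the centre where peptide bonds form, had 4265, 6702 and 6433 CPM (0.65 and 0.59). It stayed near its 3 h level, which put it among the highest after 6 h. Rpl36 differed from both in being highest after 6 h, with 3536, 4562 and 5215 CPM (0.37 and 0.56), although its ratio of 6 h to 3 h, 0.19, was -0.03 with median-of-ratios and with TMM factors.

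Rpl35 was the furthest below the family after 3 h. Its protein sits at the mouth of the exit tunnel, where it helps to receive chain-binding factors. The gene (chr2:39001580-39005624, minus strand, 4 exons) had 1059 CPM in the control, 638 CPM after 3 h and 552 CPM after 6 h, with log2 ratios of -0.73 (-0.75 to -0.71) and -0.94 (-0.97 to -0.91). Cells reduced to 4000 UMIs had at least 1 Rpl35 UMI in 98.2% of cases in the control, 90.8% after 3 h and 88.3% after 6 h. A copy listed as Gm2000, whose transcript matches 371 of the 372 coding bases, went the other way with 167, 283 and 352 CPM. Of the 91-base windows in the last 400 bases of Rpl35 mRNA, 70.3% occur in that copy as well, so reads from them match both genes. Added together the 2 genes had ratios of -0.41 and -0.44. The value for Rpl35 alone is therefore uncertain, and the sum is below the family's median at both times. Any reads left out for matching both genes would be missing from the sum as well.

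Rps28, Rpl39 and Rps27l were low at both times too. Rps28, which lines the mRNA exit channel, had 3168, 2596 and 2131 CPM (-0.29 and -0.57). Rpl39, a small protein of the exit tunnel wall, had 2493, 2088 and 1831 CPM (-0.26 and -0.44). Both were lower in each later library. Rps27l, a relative of Rps27 that is also a known p53 target, had 1255, 816 and 893 CPM (-0.62 and -0.49), lowest after 3 h with CPM. Its ratio of 6 h to 3 h, 0.13, was -0.10 with median-of-ratios and -0.09 with TMM factors. With median-of-ratios factors, which raise every 3 h value by about 0.24, 4 of the 80 genes were at or below 0 after 3 h. Rps19bp1 had 139, 118 and 153 CPM, with ratios of -0.24 and 0.13, and its 3 h ratio was 0.003 with those factors.

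Beside Rpl35, Rps28 and Rps27l, further genes were low after 6 h. Rpl9, a large subunit protein near the binding site of elongation factors, had 1822 CPM in the control, 1569 CPM after 3 h and 874 CPM after 6 h, with log2 ratios of -0.22 and -1.06 (-1.08 to -1.04). It was the single member past 2-fold lower after 6 h, against 4.41% of all genes. No member was 2-fold lower after 3 h, against 5.54%. Rpl7a, an rRNA-binding protein of the large subunit, had 1191, 1108 and 612 CPM (-0.10 and -0.96). Rpl10, which joins the large subunit last and is needed for the subunits to meet, had 739, 742 and 404 CPM (0.01 and -0.87). Rpl22l1, a relative of Rpl22, had 622, 634 and 364 CPM (0.03 and -0.77). For these 4 genes most of the difference arose between the treated libraries, with ratios of 6 h to 3 h of -0.84, -0.86, -0.88 and -0.80. With median-of-ratios factors the 3 h ratios of Rpl9 and Rpl7a were 0.02 and 0.14, above 0.

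None of the 80 was past 2-fold in that step, against 1.64% of all genes higher and 0.165% lower. The low position of Rpl9, Rpl7a, Rpl10 and Rpl22l1 was seen in all 4 depth groups of cells. These groups are parts of the sums by which the genes were picked, and they are no replicates. At 6 h the groups ranged from 867 to 886 CPM for Rpl9, from 560 to 635 CPM for Rpl7a, from 389 to 417 CPM for Rpl10 and from 321 to 390 CPM for Rpl22l1. In the control the lowest groups had 1803, 1150, 732 and 614 CPM, above every 6 h group of the same gene. Chosen after their values were seen, Rps3, which guards the mRNA entry, had a ratio of 6 h to 3 h of -0.74, Rps18 of -0.69 and Rpl3, which reaches towards the peptide bond centre, of -0.68.

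Rpl5 and Rpl11 encode the proteins that form a particle with 5S rRNA and that bind Mdm2 when they are not built into ribosomes. Rpl5 had 1525, 1903 and 1464 CPM (0.32 and -0.06), and Rpl11 had 2159, 2479 and 1744 CPM (0.20 and -0.31). Both were highest after 3 h and lowest after 6 h.

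Against the control, from lowest to highest, genes of the small subunit's body and platform lay closer together than those of its head or of the exit tunnel. These ranges rest on single end genes, among them Rps15 and Rpl35, and the value of Rpl35 is uncertain. The 9 genes around the exit tunnel had a median ratio of 0.31 after 3 h and -0.08 after 6 h, with 6 and 4 above 0, and reached from Rpl35 at the low end to Rpl26 after 3 h (0.50) and Rpl31 after 6 h (0.48). The 14 genes of the small subunit's head had 0.34 and 0.11, with 12 and 9 above 0. Rps15 was their highest and Rps28 their lowest at both times. The 16 genes of its body and platform had 0.23 and -0.01, with 12 and 8 above 0, from Rps26 (-0.14) to Rps14 (0.73) after 3 h and from Rps13 (-0.42) to Rps14 (0.40) after 6 h. Of all genes 27.4% and 39.7% were above 0. For 6 h against 3 h the order differed, with the exit tunnel from -0.45 to 0.13 and the body and platform from -0.55 to 0.20.

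Of the most abundant members named here, Rps12 and Rpl41 stood furthest above the family's median after 6 h, by 0.37 and 0.34. In the control Rpl13 (7511 CPM), Rps20 (7150 CPM), Rpl41 (6465 CPM) and Rps12 (4970 CPM) were among the highest. These are counts of captured 3′ ends that were not divided by length, and how well each mRNA is captured was not measured. At 3 h they stood at 9917, 8262, 6815 and 7001 CPM, and after 6 h at 7922, 7651, 8476 and 6631 CPM. Rpl41, whose peptide is the shortest of the ribosome, was the one of these with its highest level after 6 h (0.08 and 0.39), and its near copy Gm10076 had 710, 231 and 235 CPM. With that copy added its ratios were -0.03 and 0.28. Rps27a, made as a fusion with ubiquitin, had 4395, 5562 and 4789 CPM (0.34 and 0.12).

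Spread between members was larger after treatment. The standard deviation of member levels relative to their mean was 53.9% in the control, 57.8% after 3 h and 63.3% after 6 h. Between cells reduced to 4000 UMIs, the ratio of variance to mean of a member's UMIs had a median of 1.31 in the control, 1.48 after 3 h and 1.37 after 6 h, where 1 would be counting noise alone. For Rps15 it was 1.27, 1.76 and 2.09. Its mean number of UMIs in these cells was 8.03, 16.5 and 18.4, and the part of the level in the ratio was not tested.

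Several members share sequence with another listed gene, and the first coding bases of Rps27 and its relatives show how close a copy can be. Counted from 1 at the A of the start codon to base 60, in GENCODE M21 transcripts, with capitals where the letter differs from Rps27, they read as follows.
Rps27: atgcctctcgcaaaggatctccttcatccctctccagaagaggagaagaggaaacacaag
Rps27rt: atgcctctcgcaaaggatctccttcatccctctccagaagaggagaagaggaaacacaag
Rps27l: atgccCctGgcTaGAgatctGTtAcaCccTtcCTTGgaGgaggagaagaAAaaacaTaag

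Rps27rt (chr9:114982366-114982739, minus strand, 1 exon) shares all 255 coding bases with Rps27 (chr3:90212522-90213651, minus strand, 4 exons), while Rps27l differs at 18 of the 60 printed bases and has 76.1% identity over its coding sequence. Rps27 had 2189, 2066 and 2378 CPM (-0.08 and 0.12) and Rps27rt 82.2, 113 and 159 CPM (0.45 and 0.94). Of the 3′ windows of Rps27rt 89.8% also occur in Rps27. The low level of the copy may in part be reads of the larger gene, or reflect reads left out for matching both. The ratio of the copy is therefore uncertain. How reads that match more than 1 gene were handled is not given in the sources used here. Shared windows were found for 9 of the 80 genes, over 50% of windows for 6 of them.

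Other near copies listed as separate genes also had higher ratios than their parents. Exceptions were the copy of Rpl41 given above and Gm10260, a copy of Rps18. Gm10260 had 77, 10 and 9 UMIs and lay under the filter. Without the added 1 its ratios were -1.13 and -1.01, beside 0.25 and -0.43 for Rps18. Rpl10-ps3, identical to Rpl10 over all 645 coding bases, had 29.7, 46.5 and 53.6 CPM while Rpl10 went from 739 to 404 CPM. Rpl36a-ps1 had 38.9, 60.2 and 60.1 CPM while Rpl36a had 1455, 1473 and 1195 CPM. Rpl9-ps6, with 578 of 579 coding bases shared, had 58.1, 72.0 and 54.4 CPM. Adding each copy to its parent gave 6 h ratios of -0.75 for Rpl10, -0.25 for Rpl36a and -1.02 for Rpl9, all still below 0. The 71 members without a shared window had medians of 0.31 and 0.06.

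The more distant relatives gave mixed values. Rpl7l1 had 202, 239 and 231 CPM (0.24 and 0.19), Rpl36al 1068, 1227 and 1119 CPM (0.20 and 0.07), and Rpl39l 55.7, 70.5 and 56.1 CPM (0.33 and 0.01). Rpl22 itself, which is known to bind its relative's mRNA, had 1913, 1823 and 1330 CPM (-0.07 and -0.52), with a 3 h ratio of 0.17 under median-of-ratios factors. Both Rpl22 and Rpl22l1 were thus below the control after 6 h.

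The step from 3 h to 6 h followed coding length among the members. Over the 80 genes, Spearman's rho between coding length and the log2 ratio of 6 h against 3 h was -0.50, given as a description across genes of the same libraries. The 26 shortest, of 78 to 393 coding bases, had a median of -0.07 with 11 above 0. The 27 of middle length had -0.26 with 4 above 0, and the 27 longest, of 555 to 1260 bases, had -0.37 with 0 above 0. Other genes of up to 1260 coding bases, 3442 in number, had a rho of 0.04, and all 7679 genes with a coding length had 0.42. At 3 h against the control the members' rho was 0.37, with medians of 0.09, 0.34 and 0.34 from the shortest to the longest group. At 6 h against the control it was -0.004, with medians of 0.02, 0.12 and 0.06, so no relation with coding length was seen between these libraries. In size, coding length had the largest rho of 10 features tried in the step from 3 h to 6 h. The number of exons had -0.41 and mRNA length -0.30, while GC content had 0.11, the share of A 0.03 and the level in the control 0.14.

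**Figure D5:**
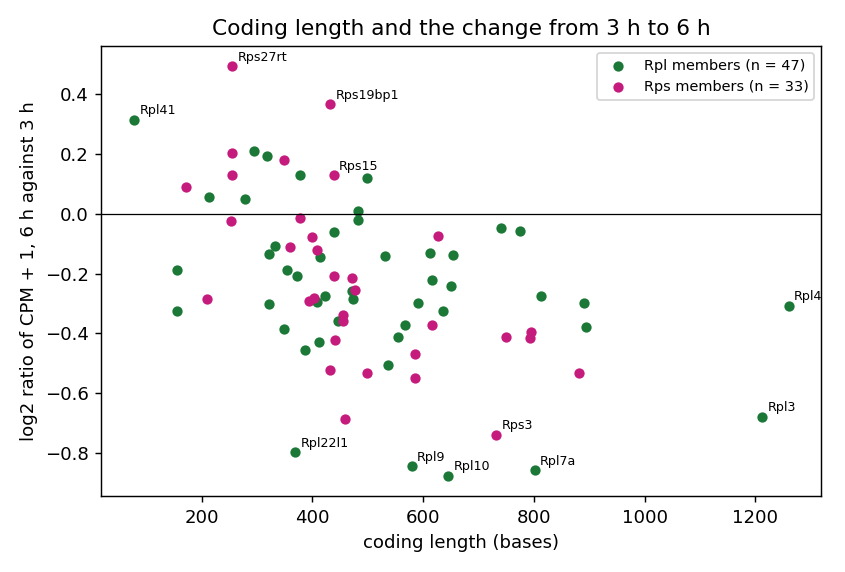
Coding length in bases (x axis) against the log2 ratio of CPM + 1 of 6 h to 3 h (y axis), 1 point for each of the 80 genes, coloured by subunit name. No gene of 555 bases or more has a ratio above 0, whereas 11 of the 26 shortest do, and Rpl22l1 lies low among short genes; with median-of-ratios or TMM factors 3 genes in all would lie above 0.

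The start regions of the genes at either end are printed to show the pyrimidine runs near them, since a TOP sequence is such a run at the first base of the mRNA. Windows of 30 bases on either side of the annotated RefSeq start (GRCm38.p6, sense strand, 5′ to 3′) were searched on that strand for a C followed by an unbroken run of C and T. Capitals mark the longest run. Rps15 is the highest gene, and the other 3 were among the lowest.
Rps15, chr10:80292401-80292460, plus strand: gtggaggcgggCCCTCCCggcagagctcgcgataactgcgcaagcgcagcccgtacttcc
Rpl35, chr2:39005102-39005161, minus strand: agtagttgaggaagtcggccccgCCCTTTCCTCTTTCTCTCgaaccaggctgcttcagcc
Rpl7a, chr2:26910777-26910836, plus strand: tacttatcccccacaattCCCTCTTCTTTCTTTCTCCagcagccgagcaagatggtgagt
Rpl9, chr5:65391402-65391461, minus strand: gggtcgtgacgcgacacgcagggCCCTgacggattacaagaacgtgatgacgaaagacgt

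Runs were of 18 bases in Rpl35 and 19 in Rpl7a, where they begin 7 and 12 bases before the annotated start and cross it. The runs of 7 bases in Rps15 and 4 in Rpl9 begin 19 and 7 bases before it and end before it. By the RefSeq start they are therefore no TOP sequence. GENCODE M21 begins the printed genes elsewhere. It places Rpl9 from chr5:65391444, ahead of its run, and Rps15 from chr10:80292453, after the RefSeq start. Whether these mRNAs begin with a TOP sequence was therefore not settled. A run of at least 8 anywhere in the window was found in 33 of the 63 members with a window (52.4%), against 3495 of 16522 protein-coding genes (21.2%). It reached the annotated start or lay beyond it in 22 members (34.9%) and in 10.1% of the protein-coding genes. The members with such a run that passed the filter, 33, had medians of 0.28 after 3 h and 0.01 after 6 h, and the 28 without had 0.24 and 0.00. The medians of members with and without such a run thus lay close together. Small nucleolar RNAs lie within 28 of the 80 genes, which had medians of 0.31 and 0.02, against 0.26 and 0.07 for the other 52. The 4 members on the X chromosome (Rpl10, Rpl36a, Rpl39 and Rps4x) had medians of 0.01 and -0.36, with 3 and 1 above 0. Another gene overlaps 22 of the 80 on the opposite strand. Whether strand was used in counting is not given in the sources used here, and these 22 had medians of 0.29 and 0.09.

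Ribosomal proteins whose symbols the rule does not catch were mostly high as well. Of 7 such genes, 6 had ratios above 0 at both times, against 27.4% and 39.7% of all genes, and the medians were 0.61 and 0.34. Rpsa, which encodes a protein at the back of the small subunit that doubles as the laminin receptor, had 4537, 7486 and 6532 CPM (0.72 and 0.53), and Rplp0, the base of the large subunit's stalk, had 3705, 5896 and 4860 CPM (0.67 and 0.39).

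Other mRNAs known for a TOP sequence, 23 in number, had medians of 0.09 and -0.15, with 14 and 7 above 0. They lay between the family and all genes after 3 h and near all genes after 6 h. The 190 other genes of at least 500 CPM, some of them in this list, had medians of 0.08 and 0.07. After 3 h the list was thus close to abundant genes in general, and after 6 h it was below them. The list ran from Pabpc1, the poly(A) binding protein, with 809, 435 and 330 CPM (-0.89 and -1.29), to Eif3k, a subunit of initiation factor 3, with 567, 1161 and 980 CPM (1.03 and 0.79). Elongation factor Eef2 stood at 0.65 and 0.53, and the cyclophilin gene Ppia at -0.06 and -1.02. Of the 6 chaperones that escort single ribosomal proteins, 5 had ratios below 0 at both times, with medians of -0.34 and -0.26. Most of all genes were below 0 too, with 27.4% above it after 3 h and 39.7% after 6 h. Pdcd2, the escort of Rps2, had 44.7, 29.4 and 20.8 CPM (-0.59 and -1.06), and Grwd1, the escort of Rpl3, had 55.0, 68.2 and 67.7 CPM (0.30 and 0.29). Among regulators of TOP mRNAs, 10 of 11 passed the filter, and 4 had ratios above 0 at either time, with medians of -0.32 and -0.20. Mtor had 45.1, 25.8 and 33.9 CPM (-0.78 and -0.40), and its inhibitor Tsc1 20.1, 25.5 and 29.5 CPM (0.33 and 0.54). Above the median of all genes lay 3 of the 6 chaperones and 5 of the 10 regulators after 3 h. After 6 h these numbers were 3 and 4.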

How the data were processed

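The authors deposited raw UMI counts per gene and barcode for 3 libraries, all barcodes included. Reads were processed with Cell Ranger 7.1.0 and the build mm10, per the submitters' processing notes; the annotation release, the use of intronic reads and the handling of reads that match several genes are not given in the sources used here. The members and all lists were chosen with earlier results of these data known.

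A barcode was called a cell from 11033 UMIs in the control, 2961 after 3 h and 2107 after 6 h, set by dividing by 10 the UMIs at percentile 99 among the top 3000 barcodes. It also had to have 500 genes, and mitochondrial UMIs could not exceed 20%. Doublets were kept, and cells over 2 times the median UMIs were left out as an alternative. Counts were summed per library, scaled to CPM and compared as log2 of CPM + 1 where the mean over libraries reached 10 CPM. Ratio intervals are exact conditional binomial intervals without the pseudocount, and intervals of shares are Clopper-Pearson, at 95%. Both cover counting error only. Named genes were the 5 highest and 5 lowest members in each comparison with the control, the 5 most abundant, the listed copies and relatives, Rps15, Rpl5, Rpl11, Rps27a and Rpl22, and the ends of each list. Some genes that this rule picks are not reported here. On simulated counts for 7884 genes with 200 changed, 100% of changed genes were recovered in each of the 3 comparisons and 94.8 to 95.3% of intervals held the true ratio. These counts held counting noise alone, and every change was set larger than the 2-fold limit. The simulation checks the calculation and says nothing on smaller ratios or on differences between cultures.

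Alternatives changed the cell minimum, the mitochondrial limit, the weight and depth of cells, free RNA, scaling (TMM from edgeR 4.0.16), pseudocount, filter and limit, and 4 were added after seeing the data. Gene structures came from GENCODE M21, starts from RefSeq (GRCm38.p6), both the build mm10 stands for. The tools were R 4.3.3, Python 3.11.15, biopython 1.88, scipy 1.17.1, numpy 2.4.6, matplotlib 3.10.9 and pandas 2.3.3.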

Additional observations from a re-analysis of the deposited data

Results flagged for a closer look

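Some members had ratios of opposite sign after the 2 exposure times, against the same control library, and the difference between the times was not tested. Of the 80 genes, 21 were above 0 after 3 h only and 3 after 6 h only, and only named ones are given here. The same shares over all genes were not counted. The log2 ratio of Rpl5 was 0.32 after 3 h and -0.06 after 6 h, and that of Rpl11 was 0.20 and -0.31. Rpl22l1 had 0.03 after 3 h, close to 0, and -0.77 after 6 h. Rps19bp1 went the other way, with -0.24 and 0.13. Ribosomal protein genes also held 33.1% of the UMIs of barcodes below the cell minimum after 3 h and 21.6% after 6 h, above the 16.2% in the control.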

How the results depend on the processing

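With 1 library per group no replicate could be left out. No paired analysis was possible because each group is 1 library. The share of UMIs held by the family, 21.9%, 27.2% and 23.7% in the control, after 3 h and after 6 h, kept its order under each alternative tried. It was 21.84, 26.99 and 23.54% with 0.5 times the UMI minimum, 21.94, 27.71 and 23.82% with 2 times the minimum, 21.93, 27.53 and 23.77% with at most 10% mitochondrial UMIs, 21.80, 26.17 and 23.53% with equal weight for each cell, 21.81, 26.97 and 23.97% with 4000 UMIs per cell, 22.12, 26.54 and 23.61% with free RNA subtracted, 21.94, 27.75 and 23.92% without cells of low share, and 21.91, 27.18 and 23.79% without cells of many UMIs.

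The family's median log2 ratio became 0.38 after 3 h and -0.33 for 6 h against 3 h when its own UMIs were left out of the total, 0.52 and -0.49 with median-of-ratios factors, and 0.47 and -0.49 with TMM factors. UMIs per called cell gave -1.75 after 3 h, -2.55 after 6 h and -0.84 between them, and Rps15 -0.98 and -1.44 against the control. Those scalings moved the median of all genes by 0.23 after 3 h and -0.22 between treated libraries (median-of-ratios), by 0.19 and -0.21 (TMM), and by -1.88, -2.41 and -0.51 (per cell). The values per cell include the effect of the 1 added before the logarithm. With a limit of 1 on the log2 scale, 1, 3 and 0 members stood apart in place of 6, 14 and 7. The last count was 4 without relatives and Rps19bp1 and 3 without members of shared 3′ ends. Fewer members were counted in both cases. The difference between subunits stayed between -0.0018 and 0.0503 in all comparisons and settings run. Depth limits the rarest members most: Rpl3l rests on 100, 51 and 45 UMIs.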
